A study of Mus musculus with 8 samples.

Results

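The comparison of IQ1 with control after 9 h of culture rests on 6 of the 8 arrays of the series, 3 from E12.5 C57BL/6J mouse lungs cultured with 10 µM IQ1 (IQ1 replicates 1, 2 and 3) and 3 from E12.5 C57BL/6J lungs cultured with vehicle (control replicates 1, 2 and 3). The members are all arrays whose titles name IQ1 or control at 9 h, and the values are those of 24304 named genes, each read from its brightest spot. The remaining 2 arrays, 1 of IQ1 and 1 of control, came from pooled lungs after 24 h and serve as a side-by-side reading. All lungs were wild-type whole organs kept on filters in DMEM with fetal bovine serum, and RNA was taken from the whole homogenate. The labels name PBS as vehicle whereas the methods dissolve IQ1 in DMSO and give controls either solvent, so IQ1 and its solvent cannot be told apart where the solvents were unequal. Sample descriptions of the IQ1 arrays also speak of global FGFR2b inhibition, but the treatment field, which reads IQ1, set the groups. Whether the 9 h lungs came from separate litters or cultures is not given in the sources used here beyond the words biological replicates, and the p-values measure only the spread between these samples.

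IQ1 is a small molecule that binds a regulatory subunit of the phosphatase PP2A and lowers the pairing of β-catenin with the coactivator EP300, while pairing with the related CREB-binding protein is spared. In the E12.5 lung the distal epithelium branches under FGF10 from the mesenchyme, and canonical Wnt signalling through β-catenin acts in the same distal buds. Around them lie a mesenchyme with a forming capillary plexus whose endothelium depends on VEGF, smooth muscle along the airways, and an outer mesothelium.

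Levels are quantile-normalised log2 intensities and differences are IQ1 minus control, so a difference of 1 is a factor of 2. Control replicate 2 correlated with the other 7 arrays at 0.583 to 0.602, while those 7 correlated with one another at 0.953 to 0.982. The levels of the brightest and second brightest spot of a gene correlated at 0.302 on that array and at 0.701 to 0.750 on the others. Including it moved the median difference of the 12152 genes above the median gene (mean level above 6.72) to 0.44, against 0.00 without it. Each result is therefore given per array, with the difference over 5 arrays (control replicate 2 left out) and that over all 6, and control values are listed in the order replicate 1, 2, 3, so that the middle one is the array that stands apart. Sex-linked genes also differed between arrays. Xist, the RNA that silences an X chromosome in females, had levels of 11.99, 13.86 and 13.76 with IQ1, against 5.04, 13.51 and 14.01 in controls, and the Y-linked Eif2s3y had levels of 10.18, 5.78 and 6.37 with IQ1, against 10.65, 3.15 and 6.34 in controls. The Y-linked Uty had levels of 8.12, 3.72 and 3.89 with IQ1, against 7.74, 4.58 and 3.48 in controls, and the Y-linked Kdm5d had levels of 12.52, 13.58 and 13.23 with IQ1, against 13.18, 12.69 and 13.28 in controls. IQ1 replicate 1 and control replicate 1 carried the highest Eif2s3y and Uty levels of their groups but not the highest Kdm5d level, and the part of embryo sex in the results was not tested. The tissue label was matched by its epithelial and mesenchymal markers, since 8 of 9 lung epithelial and 5 of 6 lung mesenchymal markers lay above the median gene. Of endothelial markers 3 of 10 did. The contrast with other tissues was uneven. Above the median gene were 0 of 3 liver markers, 1 of 3 of oesophagus and trachea, 2 of 5 of cardiac muscle, 2 of 4 of cartilage and the 1 measured marker of thymus and parathyroid.

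Few genes passed an adjusted p under 0.05 in limma's moderated test. With all 6 arrays 0 of 24304 genes passed (274 higher and 216 lower at an unadjusted p under 0.05), and with 5 arrays 3 genes passed, 0.0123% of those tested, all lower with IQ1. When all 6 arrays were kept but weighted by their fit (limma's array weights, which gave control replicate 2 a weight of 0.0319), 158 genes passed as lower, 0.65% of all genes, and 75 as higher, 0.309%. The 3 IQ1 arrays lay below all 3 control arrays for 5.25% of all genes and above them for 8.33%, and these shares were 4.47% and 11.5% among genes above the median gene. With 5 arrays 48.4% of all genes had lower levels and 51.6% higher ones, and 4.14% and 4.24% did so at an unadjusted p under 0.05. The counts of every list below are to be read beside these shares. In the plot of difference against level, the marked genes above the median gene stand apart because they were picked by p and by non-overlap on these same arrays. Wherever these genes are described below, the separation of their groups was a condition of the choice.

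**Figure D1:**
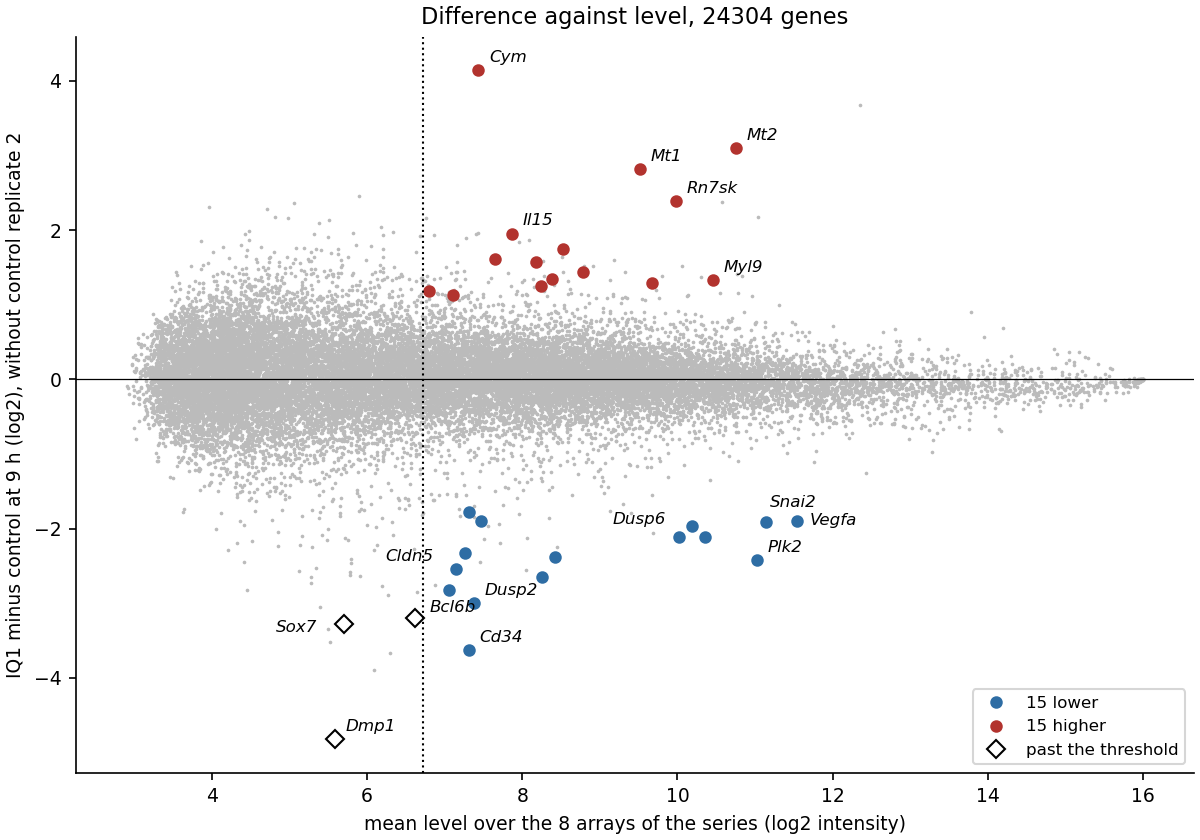
Difference between IQ1 and control at 9 h (log2, vertical axis, without control replicate 2) against the mean level over the 8 arrays (log2 intensity, horizontal axis) for 24304 genes in grey. Red and blue circles mark the 15 higher and 15 lower genes of smallest p above the median gene (dotted line at 6.72) whose groups did not overlap, and open diamonds mark Dmp1, Sox7 and Bcl6b, which passed the adjusted threshold and lie below that line.

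Endothelial genes stood out among the lower levels, and the list of their surface and junction proteins had the lowest median of the 31 lists. All 19 genes of that list had lower levels with IQ1 in the 5-array comparison, against 48.4% of all genes, and 15 of them reached an unadjusted p under 0.05, against 4.14% of all genes for that direction. Only 7 of the 19 lay above the median gene, so most members of the list gave weak signals. In 12 of the 19 the 3 IQ1 arrays lay below all 3 control arrays, and 9 passed with array weights. The median difference of the list was −1.70 with 5 arrays and −1.59 with 6, against 0.01 and 0.16 over all genes. In a whole organ, fewer endothelial cells and less of each RNA per endothelial cell cannot be told apart. Cd34, a sialomucin on the surface of endothelial and progenitor cells, had levels of 4.88, 5.50 and 5.90 with IQ1, against 9.09, 9.16 and 9.03 in controls. The control arrays, the divergent one included, were nearly equal and none came near an IQ1 array. The difference was −3.63 (SE 0.34, limma adjusted p = 0.0794). Cdh5, the adhesion molecule of endothelial junctions, had levels of 7.08, 6.75 and 7.65 with IQ1, against 10.04, 8.07 and 9.58 in controls (difference −2.65, adjusted p = 0.134). Control replicate 2 was the lowest control for this gene and lay above all IQ1 arrays, as the choice of the gene required. Cldn5, a tight junction protein of endothelium, showed the same arrangement, with 6.33, 5.99 and 6.16 with IQ1, against 8.92, 7.01 and 8.49 in controls. Pecam1, an adhesion receptor shared by all endothelium, had 5.75, 6.01 and 6.48 with IQ1, against 8.60, 8.22 and 8.20 in controls, and Icam2, a ligand for leukocyte integrins, had 4.75, 3.88 and 4.72 with IQ1, against 7.34, 8.55 and 7.10 in controls. Neither gene's groups overlapped, with differences of −2.32 for Pecam1 and −2.77 for Icam2, and Icam2 lay below the median gene. Cd93, a glycoprotein of endothelial and myeloid cells that was in none of the lists, had 7.11, 6.41 and 7.32 with IQ1, against 9.44, 10.90 and 9.21 in controls. For Cd34, Cdh5, Cldn5, Pecam1 and Cd93 non-overlap on all 6 arrays was a condition of being picked and is no separate result.

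Transcription factors of endothelium held 2 of the 3 genes that passed. Sox7, an SRY-box factor of early endothelium, had levels of 4.16, 4.17 and 4.12 with IQ1, against 7.52, 7.95 and 7.33 in controls, and fell by 3.28 on the log2 scale (SE 0.21, limma adjusted p = 0.0408). Bcl6b, a zinc finger repressor found in endothelium, had levels of 4.97, 4.94 and 4.94 with IQ1, against 8.30, 9.00 and 8.003 in controls, and fell by 3.20 (SE 0.22, adjusted p = 0.0408). The IQ1 arrays of each gene were nearly equal, those of Sox7 just below the lower quartile of 4.34 that every array shares, and both genes lay below the median gene. Of the 18 factors listed 17 had lower levels and 9 reached an unadjusted p under 0.05, and the median difference was −1.04 with 5 arrays and −0.68 with 6. Of these 18 only 8 lay above the median gene. Lmo2, a bridging factor of blood and endothelial progenitors, had 6.95, 6.88 and 7.11 with IQ1, against 9.44, 5.61 and 8.79 in controls, and here control replicate 2 lay below every IQ1 array. Its difference was −2.13 with 5 arrays and −0.97 with 6. Erg, an ETS factor that maintains endothelial identity, had 4.33, 4.48 and 5.12 with IQ1, against 6.30, 8.89 and 6.56 in controls, without overlap and below the median gene. The third gene that passed, Dmp1, encodes an acidic protein of mineralised matrix and is in none of the lists. It had 3.06, 3.51 and 3.92 with IQ1, against 8.36, 6.02 and 8.29 in controls, and fell by 4.83 (SE 0.30, adjusted p = 0.0408), also below the median gene. All IQ1 levels of Dmp1 and Sox7 lay below the shared lower quartile and were not set against background here, so the size of their fall is uncertain.

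Most listed genes of the VEGF axis, its ligands, receptors and tip cell genes, had lower levels with 5 arrays, and none passed after adjustment in that fit. Vegfa, the main growth factor of endothelium, had levels of 10.35, 10.54 and 10.68 with IQ1, against 12.57, 12.03 and 12.26 in controls, a difference of −1.90 (SE 0.24, limma adjusted p = 0.131) at high signal. Its receptor Kdr had 6.24, 5.49 and 5.95 with IQ1, against 7.96, 3.71 and 7.98 in controls, with control replicate 2 below all IQ1 arrays, and lay below the median gene. Esm1, a proteoglycan secreted by tip cells, had 4.19, 4.70 and 5.03 with IQ1, against 8.33, 9.55 and 8.29 in controls, the widest gap of the list (difference −3.67, adjusted p = 0.0687), also below the median gene. Aplnr, the apelin receptor of sprouting endothelium, had 7.42, 7.70 and 7.56 with IQ1, against 8.85, 11.17 and 8.58 in controls. Over the 20 genes of this list 15 had lower levels, 6 reached an unadjusted p under 0.05, and the median was −0.44 with 5 arrays and −0.12 with 6. Among 17 arterial and Notch genes 15 had lower levels and 6 reached an unadjusted p under 0.05 as lower and 1 as higher (medians −0.74 with 5 arrays and −0.55 with 6). Cxcr4, the receptor for the chemokine CXCL12, had 9.34, 9.25 and 9.66 with IQ1, against 11.59, 10.58 and 11.46 in controls (difference −2.11, adjusted p = 0.104). Notch4, a Notch receptor largely confined to endothelium, had 6.39, 5.53 and 6.24 with IQ1, against 7.58, 7.35 and 7.70 in controls, at a mean below the median gene. Both genes kept the groups apart. Hey1, a Notch target repressor, had 9.60, 9.82 and 10.24 with IQ1, against 11.14, 10.03 and 10.92 in controls, and overlapped on control replicate 2. Rapgef5, an exchange factor for Rap GTPases outside the lists, had 5.54, 4.77 and 5.53 with IQ1, against 8.40, 10.46 and 7.81 in controls.

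**Figure D2:**
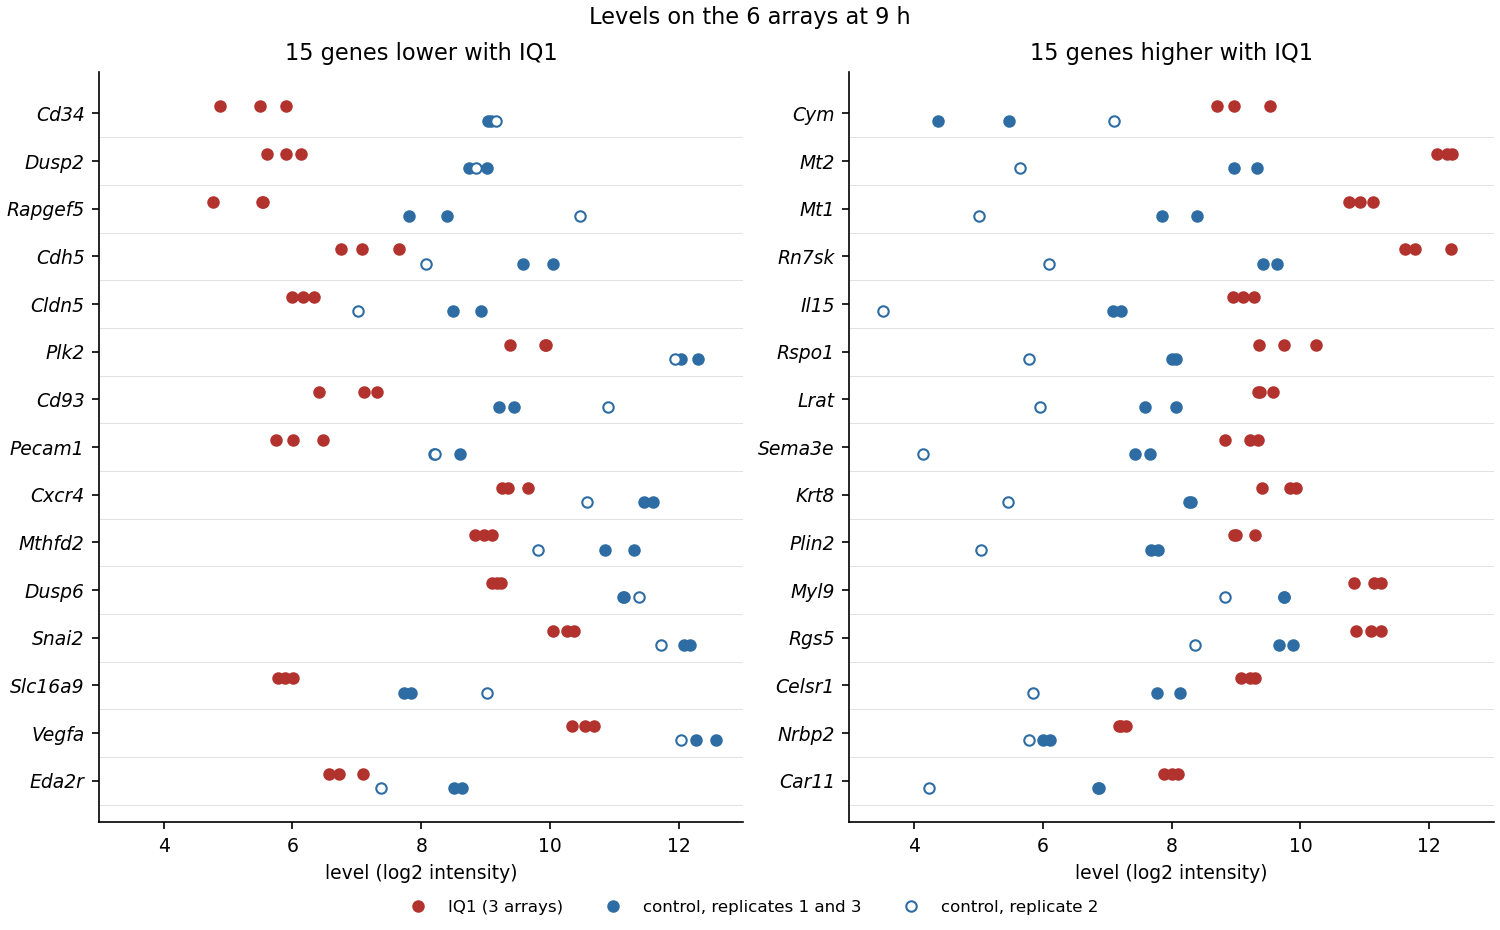
Levels (log2 intensity, horizontal axis) of the 15 lower (left) and 15 higher genes (right) on each 9 h array. Red points are the 3 IQ1 arrays, filled blue points control replicates 1 and 3, and open blue points control replicate 2, which lies below the other controls for all higher genes except Cym and on either side of them for the lower genes. These 30 genes were picked because the groups do not overlap.

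Dual-specificity phosphatases and other genes downstream of ERK were the second group. Dusp2, a nuclear phosphatase that switches off ERK, had levels of 6.14, 5.61 and 5.90 with IQ1, against 9.03, 8.86 and 8.74 in controls. All 3 control arrays lay close together and far above the IQ1 arrays, at a difference of −3.0 (SE 0.26, limma adjusted p = 0.0687). Dusp6, the cytoplasmic ERK phosphatase that marks FGF activity in embryos, had 9.17, 9.10 and 9.23 with IQ1, against 11.15, 11.37 and 11.13 in controls, again with tight groups on both sides (difference −1.97, adjusted p = 0.0977). Dusp4, a nuclear phosphatase, had 8.99, 8.66 and 8.77 with IQ1, against 10.22, 8.46 and 9.81 in controls. Dusp10, which prefers the stress kinases p38 and JNK, had 9.53, 9.24 and 10.00 with IQ1, against 10.99, 8.69 and 10.82 in controls. Both overlapped only through control replicate 2, which lay below every IQ1 array. Plk2, an immediate early kinase that is also a p53 target, had 9.92, 9.37 and 9.94 with IQ1, against 12.30, 11.94 and 12.03 in controls (difference −2.42, adjusted p = 0.104). The list as a whole was mixed. Of 42 ERK feedback and immediate early genes 27 had lower levels, and 10 reached an unadjusted p under 0.05 as lower and 3 as higher. The median was −0.25 with 5 arrays and 0.18 with 6. With each array centred on its median over genes above the median gene, it was −0.27 with 5 arrays and −0.21 with 6. Snai2, a repressor of epithelial genes in mesenchyme and neural crest and in none of the lists, had 10.26, 10.04 and 10.37 with IQ1, against 12.17, 11.72 and 12.09 in controls (difference −1.91, adjusted p = 0.113).

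Genes that cells switch on when amino acids are short formed the third group. Of 16 regulators of this response 14 had lower levels, 6 reached an unadjusted p under 0.05, in 7 the IQ1 arrays lay below all controls, and the median was −0.80 with 5 arrays and −0.77 with 6. Trib3, a pseudokinase that restrains the response, had levels of 6.73, 7.82 and 7.84 with IQ1, against 10.25, 8.11 and 9.19 in controls (difference −2.25, SE 0.48, limma adjusted p = 0.308). Stc2, a secreted glycoprotein induced by stress, had 5.01, 3.74 and 3.14 with IQ1, against 6.17, 9.64 and 6.07 in controls, and lay below the median gene. Sesn2, a leucine sensor that restrains mTORC1, had 8.72, 8.76 and 8.54 with IQ1, against 10.22, 11.15 and 9.47 in controls. In these 3 genes the groups did not overlap. Chac1, which degrades glutathione, had 6.28, 5.95 and 5.12 with IQ1, against 7.52, 4.73 and 7.28 in controls, with control replicate 2 lowest of all arrays and a mean below the median gene. Asns, which makes asparagine, had 9.37, 8.99 and 8.57 with IQ1, against 10.25, 9.50 and 10.08 in controls. Factors of the C/EBP and ATF families bind a composite element in such genes, and the promoters of Chac1 and Asns are shown because each holds it. They are the 300 bases from 250 before to 50 after the start in RefSeq's mouse build GRCm38.p6, at chr2:119350992-119351291 on the plus strand for Chac1 and chr6:7693160-7693459 on the minus strand for Asns, with matches to TGATGNAA on either strand in capitals.
Chac1: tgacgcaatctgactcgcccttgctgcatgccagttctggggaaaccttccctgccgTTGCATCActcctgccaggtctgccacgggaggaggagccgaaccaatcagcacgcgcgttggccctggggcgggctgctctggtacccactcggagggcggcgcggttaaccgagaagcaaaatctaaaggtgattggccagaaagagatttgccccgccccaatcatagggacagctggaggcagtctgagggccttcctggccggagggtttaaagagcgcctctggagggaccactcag
Asns: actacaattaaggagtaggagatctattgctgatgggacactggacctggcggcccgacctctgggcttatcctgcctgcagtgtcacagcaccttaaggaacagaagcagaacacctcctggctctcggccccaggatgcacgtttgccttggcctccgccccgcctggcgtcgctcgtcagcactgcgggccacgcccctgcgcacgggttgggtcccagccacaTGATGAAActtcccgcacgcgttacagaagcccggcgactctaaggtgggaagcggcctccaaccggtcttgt
This motif occurred in the promoter of 16 of the 49 genes from the 4 amino acid lists (response regulators, transport, serine and asparagine synthesis, tRNA synthetases) that had a promoter, 32.7%, and of 1219 of all 27025 genes with a promoter, 4.51%. A match is a stretch of letters and not a measured binding site.

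The serine and one-carbon list lay on the same side. All 15 listed genes had lower levels with IQ1 with 5 arrays, 9 reached an unadjusted p under 0.05, 7 lay below all controls on all 3 IQ1 arrays, and the median was −0.73 with 5 arrays and −0.49 with 6. Mthfd2, the mitochondrial folate dehydrogenase, had levels of 9.10, 8.83 and 8.98 with IQ1, against 11.31, 9.81 and 10.85 in controls (difference −2.11, SE 0.25, limma adjusted p = 0.113). Psat1, the transaminase of serine synthesis, had 10.30, 9.99 and 10.06 with IQ1, against 11.18, 10.67 and 11.11 in controls. Both kept the groups apart. Aldh1l2, a mitochondrial enzyme that oxidises formyl folate, had 8.37, 7.81 and 7.47 with IQ1, against 9.38, 4.32 and 9.15 in controls, and control replicate 2 turned its difference of −1.38 with 5 arrays to 0.27 with 6. Of 14 amino acid transporters 9 had lower levels and 4 reached an unadjusted p under 0.05, and the median was −0.27 with 5 arrays and −0.02 with 6. The arginine and lysine carrier Slc7a1 had 8.30, 7.52 and 7.53 with IQ1, against 10.01, 14.04 and 9.15 in controls, where control replicate 2 was far above the rest. Among 18 measured cytosolic tRNA synthetases, which load amino acids onto tRNA, 16 had lower levels by small steps, against 48.4% of all genes (median −0.41 with 5 arrays and −0.11 with 6). Of the 18, 3 reached an unadjusted p under 0.05 and 5 kept the groups apart, against 4.14% and 5.25% of all genes in that direction. The glycyl enzyme Gars had 12.02, 11.82 and 11.75 with IQ1, against 12.66, 12.38 and 12.54 in controls, and the threonyl enzyme Tars had 12.14, 12.27 and 12.22 with IQ1, against 12.78, 12.64 and 12.70 in controls.

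Most listed chaperone and sterol genes also had lower levels with 5 arrays. Of 20 endoplasmic reticulum chaperones and folding factors 19 had lower levels, 3 reached an unadjusted p under 0.05, and the median was −0.44 with 5 arrays and −0.28 with 6. Herpud1, which takes part in disposal of misfolded proteins, had levels of 9.23, 8.95 and 9.21 with IQ1, against 10.37, 8.21 and 10.19 in controls, with control replicate 2 lowest. Of 20 measured genes of sterol synthesis and uptake 18 had lower levels and 10 reached an unadjusted p under 0.05 (median −0.66 with 5 arrays and −0.39 with 6). Hsd17b7, a ketoreductase of the cholesterol pathway, had 9.38, 9.10 and 9.35 with IQ1, against 10.52, 9.33 and 10.28 in controls, and Dhcr7, which completes cholesterol, had 10.30, 9.81 and 10.10 with IQ1, against 10.98, 10.99 and 10.76 in controls. The groups of Dhcr7 stayed apart on all 6 arrays, those of Hsd17b7 overlapped through control replicate 2. No gene of the amino acid, chaperone or sterol lists passed after adjustment in the 5-array comparison, and with array weights 3 response regulators, 3 serine genes, 1 transporter, 1 chaperone and 1 sterol gene passed.

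The metallothioneins were the clearest higher genes. These small cysteine-rich proteins bind zinc and copper, and their genes respond to free zinc through the metal-sensing factor MTF1. Mt2 had levels of 12.12, 12.35 and 12.28 with IQ1, against 9.33, 5.64 and 8.98 in controls, a difference of 3.10 (SE 0.23, limma adjusted p = 0.0528) and rank 1 by p among genes above the median gene. Mt1 had 10.93, 11.12 and 10.75 with IQ1, against 8.39, 5.01 and 7.85 in controls, a difference of 2.81 (SE 0.26, adjusted p = 0.0794). In both, the 3 IQ1 arrays lay close together and control replicate 2 lay far below the other controls, so the 6-array differences of 4.27 for Mt2 and 3.85 for Mt1 are larger. Another spot of Mt1 gave 0.84. The promoters of the pair are shown for the core of the metal response element, TGCACNC or TGCGCNC on either strand, in capitals, again as 300 bases of GRCm38.p6 from RefSeq, at chr8:94178839-94179138 for Mt1 and chr8:94172368-94172667 for Mt2, both on the plus strand.
Mt1: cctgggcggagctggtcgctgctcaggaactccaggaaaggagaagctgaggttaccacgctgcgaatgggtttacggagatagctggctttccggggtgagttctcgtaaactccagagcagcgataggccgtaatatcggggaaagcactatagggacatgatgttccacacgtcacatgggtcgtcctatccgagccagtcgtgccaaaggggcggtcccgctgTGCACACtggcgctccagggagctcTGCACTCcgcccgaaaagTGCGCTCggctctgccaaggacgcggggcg
Mt2: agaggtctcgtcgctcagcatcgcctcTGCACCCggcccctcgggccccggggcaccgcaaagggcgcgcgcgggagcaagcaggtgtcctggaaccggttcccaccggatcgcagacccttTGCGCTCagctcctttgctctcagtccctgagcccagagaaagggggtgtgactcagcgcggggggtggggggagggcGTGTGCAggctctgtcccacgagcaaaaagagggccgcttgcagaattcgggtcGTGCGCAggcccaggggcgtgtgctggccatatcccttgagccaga
Mt1 held 3 matches and Mt2 4. At least 3 occurred in 1.97% and at least 4 in 0.517% of the 32851 promoters of the table.
The other zinc and metal genes lay on both sides of 0. Of the 21 listed 11 had higher levels, 4 reached an unadjusted p under 0.05 as higher, against 4.24% of all genes, and 3 as lower, and the median was 0.02 with 5 arrays and 0.81 with 6. Slc30a1, the zinc exporter of the cell surface and itself a target of MTF1, had 8.87, 7.92 and 8.91 with IQ1, against 7.45, 4.69 and 7.67 in controls. Hmox1, which breaks down haem, had 11.49, 11.76 and 11.84 with IQ1, against 11.15, 10.34 and 10.76 in controls, and the importer Slc39a10 had 9.89, 9.26 and 9.14 with IQ1, against 10.34, 10.66 and 10.47 in controls, the opposite order. Slc30a1 was named after its values were seen.

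The remaining higher genes came from unrelated families. Cym, the milk-clotting protease chymosin, had levels of 9.52, 8.71 and 8.96 with IQ1, against 4.37, 7.10 and 5.47 in controls (difference 4.14, SE 0.41, limma adjusted p = 0.0801), the largest difference among genes above the median gene with 5 arrays. Il15, a cytokine for natural killer and memory T cells, had 9.10, 9.27 and 8.95 with IQ1, against 7.21, 3.52 and 7.10 in controls (difference 1.95, adjusted p = 0.105). Rn7sk, the non-coding RNA that holds the elongation factor P-TEFb inactive, had 12.34, 11.78 and 11.62 with IQ1, against 9.63, 6.10 and 9.42 in controls. For these 3 genes the lowest IQ1 array lay well above the highest control, but non-overlap was a condition of their choice. Lrat, which esterifies retinol, had 9.57, 9.35 and 9.38 with IQ1, against 8.06, 5.96 and 7.58 in controls. Sema3e, a secreted guidance cue that repels endothelial sprouts through plexin D1, had 8.82, 9.34 and 9.21 with IQ1, against 7.66, 4.15 and 7.44 in controls, and its other spot differed by only 0.19. Plin2, the coat protein of lipid droplets, had 9.29, 8.97 and 9.00 with IQ1, against 7.79, 5.05 and 7.68 in controls. Rgs5, a G protein regulator of pericytes, had 10.85, 11.09 and 11.25 with IQ1, against 9.88, 8.37 and 9.66 in controls. Pdgfrb, the pericyte receptor described below, went the other way in the 5-array comparison. Celsr1, a planar polarity cadherin, Nrbp2, a pseudokinase, and Car11, a carbonic anhydrase relative without activity, differed by 1.24, 1.18 and 1.14. Of the 15 lower and 15 higher genes in the plot of levels, 13 had further spots, 18 in all, and each of these had the sign of the brightest one. Lower genes not described above were Slc16a9, a carnitine and creatine transporter, at 6.01, 5.89 and 5.78 with IQ1, against 7.74, 9.03 and 7.85 in controls, and Eda2r, a receptor for ectodysplasin A2, at 7.10, 6.72 and 6.57 with IQ1, against 8.63, 7.37 and 8.51 in controls.

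Most listed genes of mesothelium, smooth muscle and macrophages had higher levels with 5 arrays, and none passed after adjustment in that fit. Of 14 measured mesothelial genes 12 had higher levels, against 51.6% of all genes, 6 reached an unadjusted p under 0.05, and the median was 0.92 with 5 arrays and 1.75 with 6, the 6-array value being raised by control replicate 2, whose own list median was −2.34 relative to the mean of the other controls. The IQ1 arrays differed among themselves, since on the same scale the list median was 1.68, 0.62 and 0.48 on IQ1 replicates 1, 2 and 3. Rspo1, a secreted amplifier of Wnt signals made by mesothelium, had levels of 10.24, 9.74 and 9.35 with IQ1, against 8.002, 5.79 and 8.06 in controls (difference 1.75, limma adjusted p = 0.244). Krt8, a keratin of simple epithelia including mesothelium, had 9.83, 9.41 and 9.93 with IQ1, against 8.27, 5.46 and 8.30 in controls, and its partner Krt18 had 11.07, 10.82 and 11.11 with IQ1, against 10.06, 10.52 and 9.62 in controls. Gpm6a, a membrane glycoprotein of mesothelium and neurons, had 10.63, 9.27 and 9.17 with IQ1, against 8.22, 3.83 and 7.86 in controls. In all 4 genes the groups stayed apart. Of 20 smooth muscle and SRF target genes 17 had higher levels, 4 reached an unadjusted p under 0.05, and the median was 0.36 with 5 arrays and 0.61 with 6. Myl9, the light chain that drives contraction, had 11.15, 10.83 and 11.25 with IQ1, against 9.75, 8.82 and 9.74 in controls, Cnn1, a late smooth muscle protein, had 10.01, 9.35 and 9.97 with IQ1, against 8.72, 7.08 and 8.59 in controls, and Myocd, the coactivator that sets smooth muscle fate, had 4.69, 5.39 and 5.53 with IQ1, against 3.94, 3.44 and 3.54 in controls below the median gene. Of 12 YAP targets 10 had higher levels, 3 reached an unadjusted p under 0.05 as higher and 1 as lower (median 0.38 with 5 arrays and 0.83 with 6). The matricellular protein gene Ccn1 had 9.01, 8.51 and 8.29 with IQ1, against 7.65, 4.35 and 7.71 in controls. Of 18 macrophage and leukocyte genes 16 had higher levels and 6 reached an unadjusted p under 0.05 (median 0.42 with 5 arrays and 0.84 with 6). Mrc1, the mannose receptor, had 6.27, 6.29 and 6.28 with IQ1, against 5.22, 3.13 and 4.53 in controls below the median gene, and Tyrobp, an adaptor of myeloid receptors, had 11.33, 10.55 and 10.43 with IQ1, against 9.61, 9.74 and 9.18 in controls.

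Targets of the pathway that IQ1 addresses lay on both sides of 0. Of 25 canonical Wnt targets 12 had lower and 13 higher levels, 2 reached an unadjusted p under 0.05 as lower and 3 as higher, and the median was 0.01 with 5 arrays and 0.32 with 6, against 0.01 and 0.16 over all genes and 0.00 and 0.44 over genes above the median gene, where 17 of the 25 lie. Znrf3, a ligase that removes Wnt receptors, had levels of 9.70, 9.60 and 9.76 with IQ1, against 8.96, 5.98 and 8.86 in controls, and Sfrp2, a secreted binder of Wnt ligands, had 14.68, 14.00 and 14.27 with IQ1, against 13.42, 13.47 and 13.42 in controls, both without overlap. Ccnd2, a cyclin that drives entry into the cell cycle, had 10.67, 10.65 and 11.43 with IQ1, against 11.84, 12.75 and 11.68 in controls, in the opposite order. The 14 genes of PP2A subunits and β-catenin coactivators held 0 with an unadjusted p under 0.05, their differences ran from −0.32 to 0.52, and the median was −0.05 with 5 arrays and 0.24 with 6. Ep300 itself differed by 0.52 with 5 arrays, with levels of 8.18, 8.63 and 8.33 with IQ1, against 7.92, 5.09 and 7.79 in controls. Lung epithelial genes had medians of −0.17 with 5 arrays and 0.10 with 6, and 15 of 27 were lower, against 48.4% of all genes. At an unadjusted p under 0.05, 3 were lower and 0 higher, against 4.14% and 4.24% of all genes. With array weights 2 passed as lower, against 0.65%. The IQ1 arrays differed in sign, with list medians of −0.46, −0.16 and 0.27 relative to the mean of control replicates 1 and 3. Within the list Sftpc, the surfactant protein that marks distal tips, had 9.70, 9.35 and 9.30 with IQ1, against 10.41, 9.77 and 10.31 in controls, and Pthlh, the parathyroid hormone-related peptide by which epithelium signals to mesenchyme, had 5.03, 3.73 and 3.07 with IQ1, against 6.87, 7.05 and 7.11 in controls. Both kept the groups apart, and Pthlh lay below the median gene. Among 25 measured mesenchymal genes 12 had lower and 13 higher levels. Foxf2, a forkhead factor of mesenchyme, had 7.68, 5.87 and 7.12 with IQ1, against 8.66, 5.15 and 8.77 in controls, Pdgfrb, the pericyte receptor for PDGF-B, had 9.20, 7.99 and 8.71 with IQ1, against 10.22, 8.80 and 9.92 in controls, and Fgf9, a mesothelial and epithelial growth factor, had 8.09, 6.84 and 6.78 with IQ1, against 5.63, 4.28 and 5.84 in controls. The Fgf9 groups did not overlap, at a mean level below the median gene, whereas Foxf2 and Pdgfrb overlapped through control replicate 2.

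The other lists had medians between −0.49 and 0.41 with 5 arrays. Of 34 measured genes of MCM helicase, replication and histone supply 28 had lower levels and 6 reached an unadjusted p under 0.05. The median was −0.33 with 5 arrays and 0.05 with 6, against 0.00 and 0.44 over genes above the median gene. With each array centred it was −0.35 with 5 arrays and −0.34 with 6. Mcm4, a helicase subunit, had levels of 13.08, 12.73 and 13.19 with IQ1, against 13.74, 13.36 and 13.89 in controls, and Cdc45, which completes the active helicase, had 8.11, 7.70 and 7.94 with IQ1, against 9.00, 7.42 and 9.05 in controls. By contrast, 0 of 21 measured mitotic genes reached an unadjusted p under 0.05 (median −0.03 with 5 arrays). Of 19 glycolytic genes 14 had lower levels and 4 reached an unadjusted p under 0.05 (median −0.28 with 5 arrays and −0.12 with 6), among them Ldha, lactate dehydrogenase, at 11.46, 11.29 and 11.50 with IQ1, against 12.67, 12.06 and 12.10 in controls. Of 18 measured p53 targets 16 had lower levels and 4 reached an unadjusted p under 0.05 as lower (median −0.49 with 5 arrays and −0.16 with 6), Plk2 being shared with the ERK list. The cyclin-dependent kinase inhibitor Cdkn1a had 4.83, 4.21 and 5.41 with IQ1, against 7.27, 5.75 and 7.53 in controls, without overlap and below the median gene. The medians of hypoxia genes (−0.31 with 5 arrays, 0.31 with 6) and glucocorticoid targets (−0.17 and 0.25) changed sign with control replicate 2, and 1 of 15 and 3 of 15 members reached an unadjusted p under 0.05 as lower. With each array centred the 6-array medians were −0.07 for hypoxia genes and −0.13 for glucocorticoid targets. Lists of AhR and NRF2 targets, interferon and cytokine genes, erythroid, neural crest and cardiac genes had medians between 0.06 and 0.41 with 5 arrays and held 1 to 3 members higher at an unadjusted p under 0.05 in the first, second and last and 0 in the erythroid and neural lists. As lower, 1 member reached it in each of these lists except the neural one, which held 0. In the plot of all lists the endothelial surface list has the lowest median and the mesothelial list the highest, and most lists straddle 0.

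**Figure D3:**
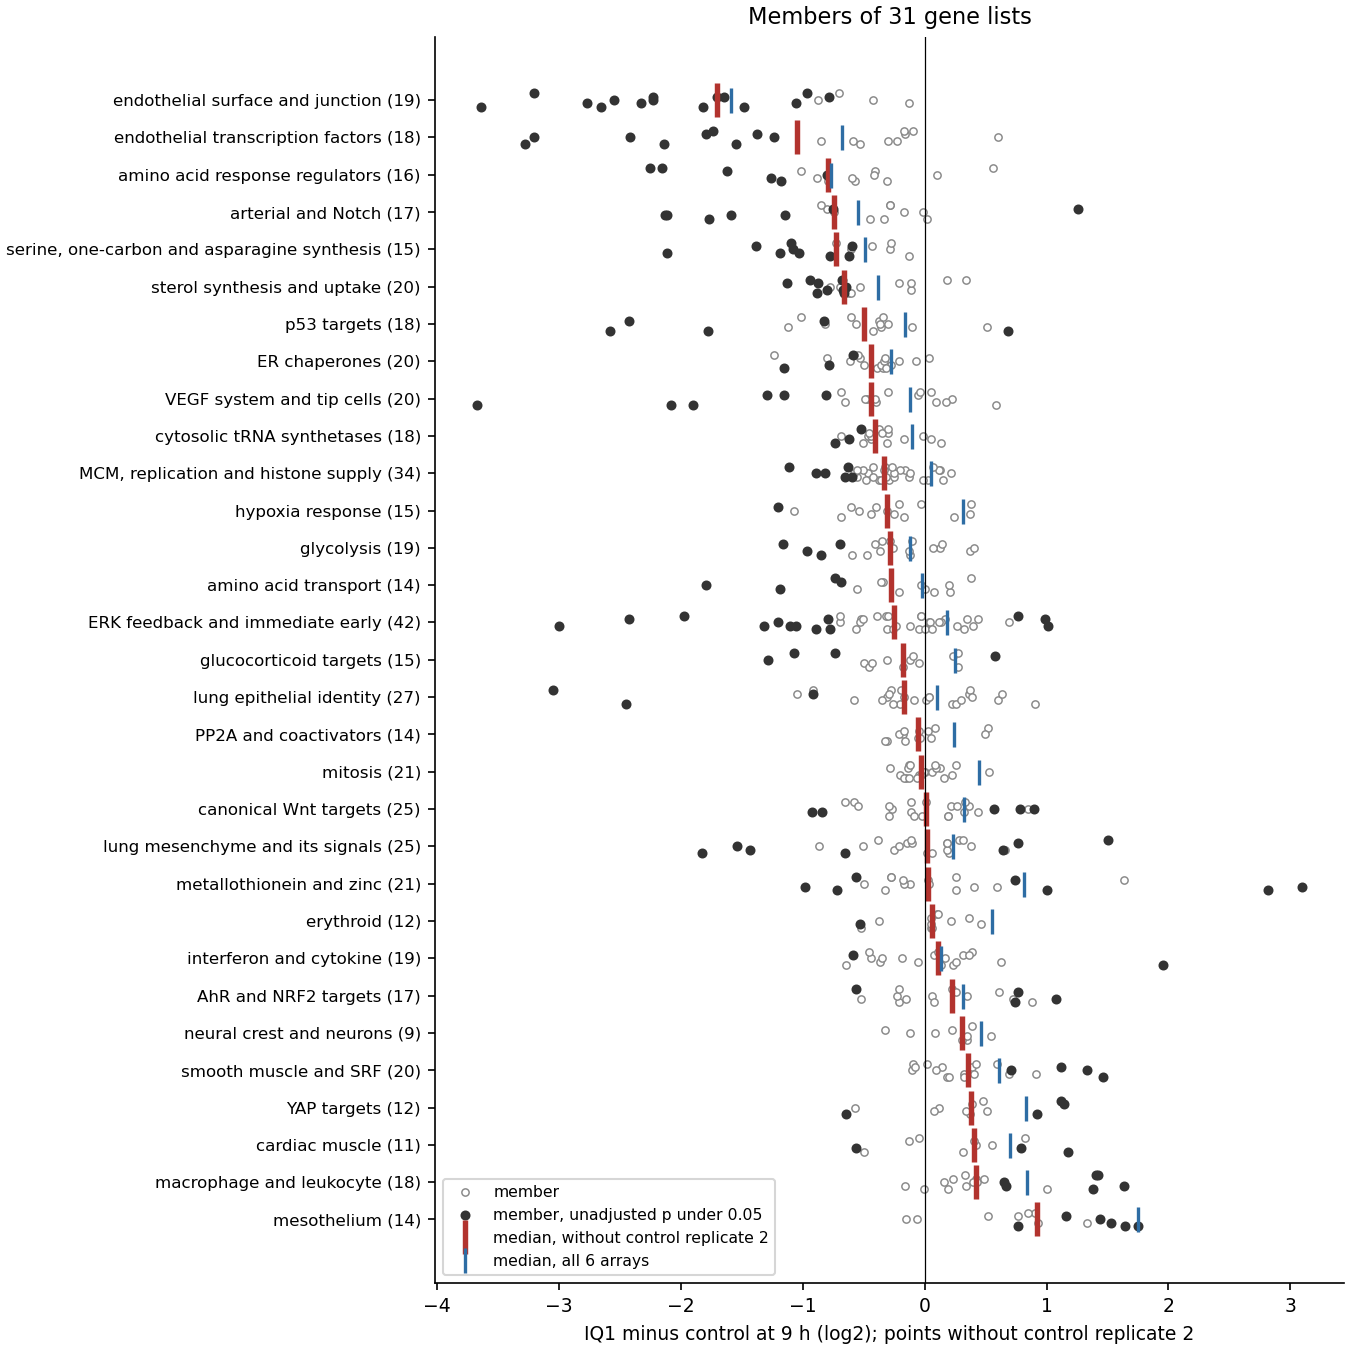
Differences between IQ1 and control at 9 h (log2, horizontal axis, without control replicate 2) of the members of 31 gene lists, with the number of measured members in brackets and lists sorted by their median. Filled points have an unadjusted p under 0.05, red bars give the median with 5 arrays and thin blue bars that with all 6, which lies to the right of the red bar in every list. Some genes are in more than 1 list.

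The lists, chosen with earlier results known, hold only some of the genes with wide differences. Among the 12152 genes above the median gene, 137 had levels lower by 1 or more with IQ1 (1.13%) and 135 higher by 1 or more (1.11%) with 5 arrays, while 49.8% of these genes had a difference below 0 and 50.2% one above. Of the 137 lower genes, 13 (9.49%) belonged to the 4 endothelial lists, which have 35 members above the median gene, 0.288% of those genes, and 0 of the 135 higher genes did. A further 11 (8.03%) belonged to the 4 amino acid lists, which have 52 such members, and 7 to the ERK list, which has 32. Of the higher genes 6 were among the 11 mesothelial members, and 3 each among the 10 macrophage and 15 metal members. The lists together covered 39 of the lower genes (28.5%) and 19 of the higher ones (14.1%), so most genes at both ends were outside every list.

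Gene families were then read from symbols alone, without regard to function. Families were genes that share the letters before the first digit or hyphen of their symbol, with 8 or more members above the median gene, which gave 197 families and 3954 genes. Family medians ran from −0.38 to 0.50 with 5 arrays, a narrow span beside the differences of single genes. The 8 lowest were Haus, Mcm, Pcdhb, Dusp, Ddx, Nup, Rrp and Srsf, which hold augmin subunits of the spindle, helicase subunits, clustered protocadherins, phosphatases, RNA helicases, nuclear pore proteins, ribosomal RNA processing factors and splicing factors. Of these, 7 had a median above 0 with all 6 arrays, among them Haus at 0.11, Mcm at 0.31, Pcdhb at 1.00 and Dusp at 0.36, and only Srsf stayed below 0 at −0.03. The median over all genes above the median gene was itself 0.44 with 6 arrays. With each array centred, the 6-array medians were −0.27 (Haus), −0.08 (Mcm), 0.61 (Pcdhb), −0.02 (Dusp), −0.19 (Ddx), −0.29 (Nup), −0.07 (Rrp) and −0.42 (Srsf), against 0.05 over those genes. All 8 Pcdhb members had lower levels with 5 arrays, none differing by more than −0.84. The Dusp family, with a median of −0.31, had 5 of 13 members at an unadjusted p under 0.05 as lower, Dusp2, Dusp6, Dusp4, Dusp10 and Dusp18, while Mcm had 3 of 9 and Haus 2 of 8. Dusp28, an atypical member, differed by 1.39. Dusp28 had levels of 7.94, 7.64 and 7.79 with IQ1, against 5.95, 3.57 and 6.87 in controls. At the upper end were Rgs, Fzd, Krt, Ift, Ndufb and Smim, with medians of 0.31, 0.28, 0.26, 0.24, 0.23 and 0.23, and 2 sets that share only the letter S or C. The Krt family had 4 of 14 members higher at an unadjusted p under 0.05, of which Krt8 and Krt18 are also in the mesothelial list, while 0 of 8 Fzd members (7 receptors and the opposite-strand transcript Fzd10os), 0 of 14 intraflagellar transport genes and 0 of 10 Ndufb subunits reached it as higher. Fzd6, a receptor of planar polarity, had 8.32, 7.58 and 7.88 with IQ1, against 8.91, 8.41 and 8.85 in controls, lower on all 3 IQ1 arrays than on any control.

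**Figure D4:**
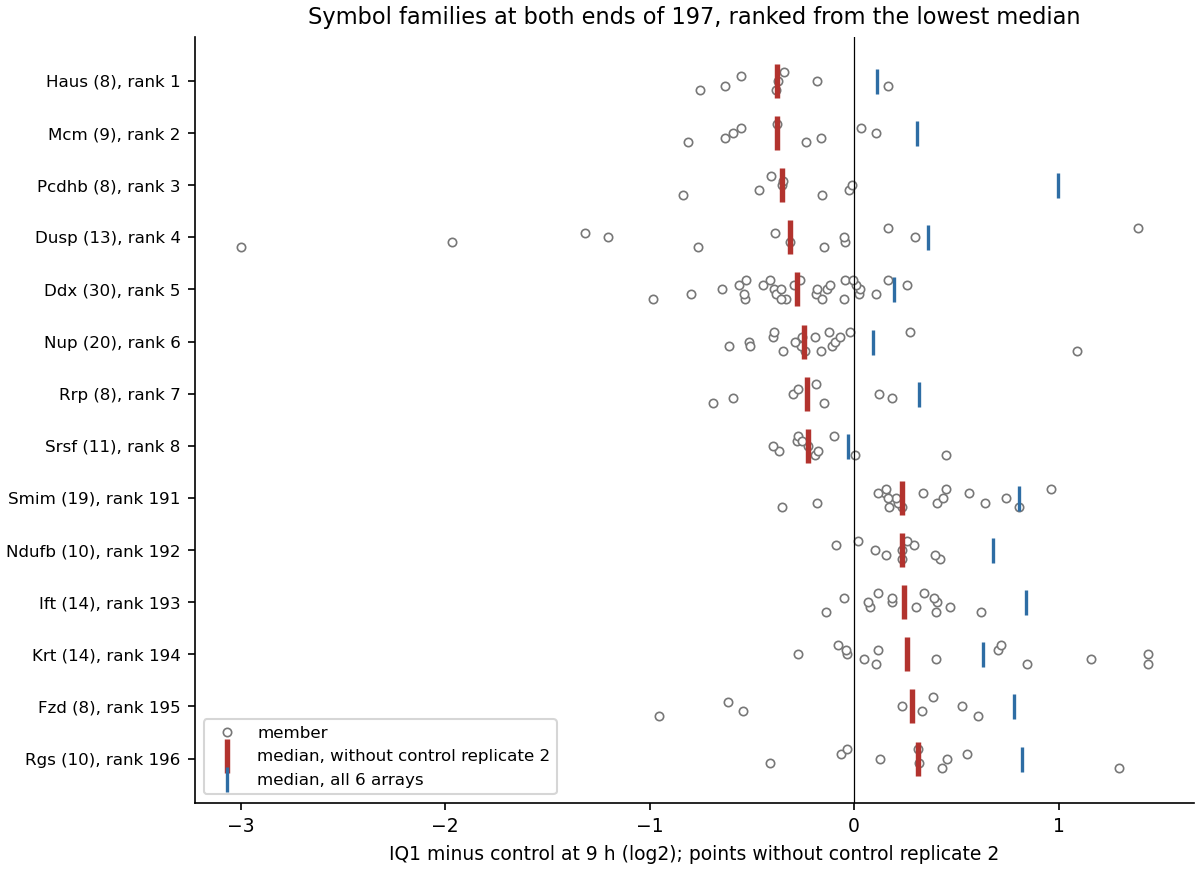
Differences between IQ1 and control at 9 h (log2, horizontal axis) of the members of the symbol families ranked 1 to 8 and 191 to 196 of 197, with the number of members in brackets. Red bars are medians without control replicate 2 and blue bars medians with all 6 arrays, which lie above 0 for all families shown except Srsf. Over all genes above the median gene the median was 0.00 with 5 arrays and 0.44 with all 6.

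The 24 h arrays hold no sample in common with those at 9 h. The 15 lower and the 15 higher genes all had the same sign at 24 h, where 63.3% of genes above the median gene did. Above the median gene, 423 genes (3.48%) were lower at an unadjusted p under 0.05 at 9 h with 5 arrays, of which 381 had a lower level at 24 h (90.1%), and 390 (3.21%) were higher, of which 329 had a higher level (84.4%). Across genes, which are not independent replicates, the differences at the 2 times correlated at 0.52 above the median gene and at 0.19 at or below it, with platform, normalisation and treatment shared by both axes. Cd34 had a level of 5.69 with IQ1, against 9.30 in the control at 24 h, Dusp2 5.92 against 8.86, and Cdh5 6.70 against 10.17. The gap at 24 h was close to that at 9 h for Cd34 and Dusp2 and wider for Cdh5, with no replicate at 24 h to set an error. Mt2 had 13.69 with IQ1, against 11.66 in the control, and Cym 8.99 against 6.38, smaller gaps than at 9 h. Lrat, Plin2 and Sema3e, by contrast, differed by 0.33, 0.52 and 0.56 at 24 h, against 1.61, 1.35 and 1.58 at 9 h. The median of the endothelial surface list was −2.13 at 24 h, that of the smooth muscle list 0.97 and that of the mesothelial list 1.29. Median differences below 0 at 9 h stood beside ones above 0 at 24 h for 6 lists, chaperones (0.11 at 24 h), glycolysis (0.19), hypoxia (0.14), ERK (0.03), lung epithelium (0.07) and PP2A and coactivators (0.13). The reverse held for 4 lists, canonical Wnt targets (−0.31 at 24 h), mesenchyme (−0.40), neural genes (−0.22) and metal genes (−0.11).

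**Figure D5:**
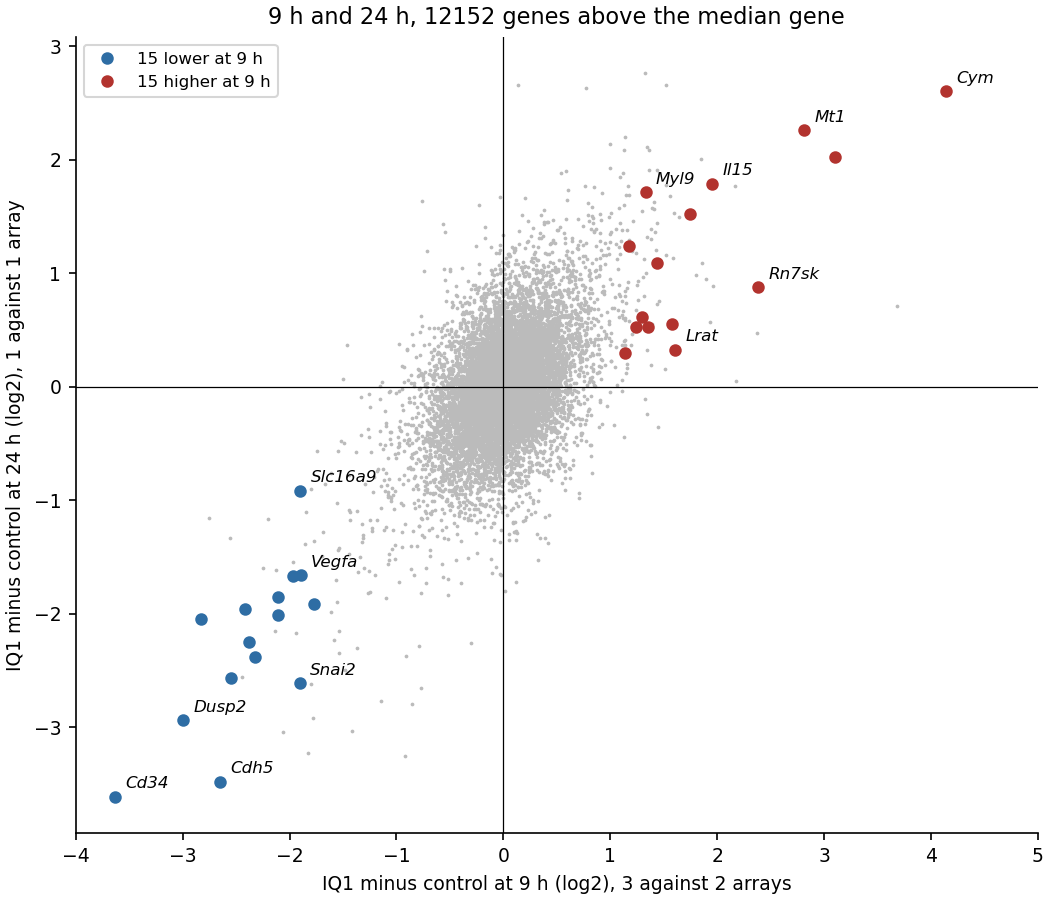
Difference at 24 h (log2, 1 array against 1, vertical axis) against the difference at 9 h (log2, 3 arrays against 2, horizontal axis) for the 12152 genes above the median gene in grey. Blue points are the 15 lower and red points the 15 higher genes at 9 h, which fall in the lower left and upper right corner.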

How the data were processed

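Whole-lung RNA was amplified as cDNA (Ovation PicoSL WTA), labelled (Cy5 per the labels, Cy3 per the methods) and hybridised to Agilent mouse arrays. The authors background-corrected the intensities (NormExp), took log2 and quantile-normalised them with limma, and the deposited table holds these log2 values for 62976 spots and 8 arrays. Since quantile normalisation forces a common distribution, a difference is relative to the remaining genes of the array. Amplification adds error to weak signals, and precision is limited by the number of arrays. Of the spots 43941 were named through RefSeq tables and 19035 were not, 8 named spots lacking a value were dropped, and the spot of highest mean over 8 arrays stood for its gene. Differences were fitted with limma 3.58.1 in R 4.3.3 (lmFit, eBayes, two-sided, Benjamini-Hochberg over 24304 genes, threshold 0.05), and checked on simulated data. The simulated arrays all had the same independent noise, so that check does not cover an array like control replicate 2. No filter or pseudocount was used. Genes and lists were chosen with earlier results of these data known. Named by rule were genes past the threshold, the 15 of smallest p per direction above the median gene without overlap, up to 4 per list and per described family by p, and the cell type markers. Lists are described by counts and medians only. Alternatives were trend, weighted, unmoderated, filtered, spot-averaged, centred and blocked fits, and leaving out arrays.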

Additional observations from a re-analysis of the deposited data

Results flagged for a closer look

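For 2 genes named above the 3 IQ1 arrays lay on one side of all 3 control arrays at 9 h while the single pair of arrays at 24 h differed with the other sign. The difference between the times was not tested in either case. Aplnr was lower on every IQ1 array at 9 h, with 7.42, 7.70 and 7.56 with IQ1, against 8.85, 11.17 and 8.58 in controls (difference −1.15 with 5 arrays), and at 24 h it had 8.30 with IQ1, against 8.29 in the control, a difference of 0.00814. Its levels at 24 h were thus nearly equal, and no reversal can be read from them. Ep300 was higher on every IQ1 array at 9 h (difference 0.52 with 5 arrays, limma adjusted p = 0.635), and at 24 h it had 7.99 with IQ1, against 8.09 in the control, a difference of −0.10. Such a change of sign occurred for 116 of the 543 genes above the median gene whose IQ1 arrays all lay below the controls (21.4%) and for 424 of the 1396 whose IQ1 arrays all lay above (30.4%).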

How the results depend on the processing

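The count of genes past the adjusted threshold depended on the fit. With all 6 arrays it was 0 and stayed 0 with a trended prior, without moderation, above the median gene only, with averaged spots, with centred arrays and with the 24 h arrays in the fit, but was 233 with array weights, and leaving out 1 array gave 0 to 3, the 3 without control replicate 2. With 5 arrays it was 3, and became 139 with a trended and robust prior, 34 with array weights, 31 above the median gene only, 9 with averaged spots and 0 without moderation, and 0 to 0 when a further array was left out. The centring of arrays and the share of genes with the same sign at 24 h were added after seeing the data. With the replicate number as a block, 0 genes passed with 6 arrays and 0 with 5. The deviations of same-numbered arrays from their group means correlated at 0.004, −0.004 and 0.015. The control mean included control replicate 2, which dominates the control deviations, so these values cannot show whether same-numbered arrays were paired. Signals over background were not used here, and dim genes are less certain.

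Of 95 genes described with values 92 kept their direction with all 6 arrays, 94 with the block and 95 with averaged spots, array weights or centred arrays. The exceptions were Aldh1l2 at 0.27 with all 6 arrays and the sex-linked genes. Eif2s3y was at 0.73 and Kdm5d at 0.062 with all 6 arrays, Uty was at 0.39 with the block, and leaving out a further array turned Eif2s3y to 1.11, Kdm5d to 0.18, Uty to between 0.31 and 1.77 and Xist to −0.80. The naming rule covers 207 genes, of which 79 are described (1 with the other sign with all 6 arrays) and 128 are not (31 with the other sign). Among the described genes, the 30 of the levels plot were picked for non-overlap on all 6 arrays. That choice fixed their direction with 6 arrays in advance, so the count of 92 is no measure of robustness. Centring each array moved the 6-array medians to −1.07 (endothelial transcription factors), −0.51 (VEGF), −1.15 (amino acid response), −0.49 (tRNA synthetases), −0.67 (chaperones), −0.77 (sterol), −0.51 (glycolysis), 0.22 (smooth muscle), 0.45 (macrophage), −0.064 (Wnt), −0.073 (AhR and NRF2), −0.25 (interferon), 0.075 (neural) and −0.14 (PP2A and coactivators), where the median of all genes moved to −0.23. Averaged spots gave −0.14 for interferon, −0.23 for neural and −0.26 for cardiac genes, and members above the median gene only gave 0.95 for AhR and NRF2 and −0.14 for interferon. Leaving out 1 of the 6 arrays gave medians of −1.04 to −0.42 for endothelial transcription factors, −0.44 to 0.044 for VEGF, −0.25 to 0.35 for ERK, 0.025 to 1.15 for metal genes, −0.93 to −0.53 for the amino acid response, −0.41 to 0.023 for tRNA synthetases, −0.028 to 0.62 for mitosis, 0.42 to 1.01 for macrophage, 0.037 to 0.71 for AhR and NRF2, −0.043 to 0.19 for interferon, 0.059 to 0.75 for erythroid and 0.26 to 0.72 for cardiac genes. Control replicate 2 gave one end of that range for endothelial transcription factors, VEGF, ERK, metal, tRNA synthetase, mitosis, macrophage and erythroid genes. The cause of these shifts was not tested.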

Other observations

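Genes outside the lists, named after their values were seen, included more genes of endothelium. Gimap6, a GTPase of immune and endothelial cells, had levels of 6.15, 5.18 and 6.10 with IQ1, against 8.25, 10.33 and 8.25 in controls (difference −2.44 with 5 arrays, limma adjusted p = 0.159). Its groups did not overlap. Adgrf5, an adhesion G protein-coupled receptor of endothelium and lung epithelium, had 7.19, 7.16 and 6.72 with IQ1, against 9.12, 6.66 and 8.80 in controls, and Calcrl, the receptor through which adrenomedullin acts on vessels, had 7.44, 8.13 and 7.68 with IQ1, against 9.36, 5.10 and 9.74 in controls. In both, control replicate 2 lay below every IQ1 array, so the groups overlapped, and at 24 h the differences were −2.17 for Adgrf5 and −2.62 for Calcrl.

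Further genes, also named after their values were seen, had other roles. Scd1, which makes monounsaturated fatty acids, had 9.59, 8.28 and 8.74 with IQ1, against 10.74, 9.22 and 10.71 in controls (difference −1.85 with 5 arrays, limma adjusted p = 0.314), and its groups overlapped through control replicate 2. Elovl6, which lengthens palmitate, had 7.05, 6.502 and 6.95 with IQ1, against 8.01, 7.29 and 7.88 in controls, and the groups did not overlap. Bcat1, the cytosolic transaminase of branched-chain amino acids, had 7.54, 6.90 and 6.32 with IQ1, against 9.35, 12.03 and 8.74 in controls. Among the higher genes, the growth factor gene Fgf5 had 9.34, 8.16 and 7.87 with IQ1, against 6.17, 3.94 and 6.41 in controls (difference 2.16), and the testis gene Speer4b had 9.73, 8.45 and 8.41 with IQ1, against 6.85, 6.01 and 7.19 in controls. The adult globin gene Hbb-b1 had 12.77, 12.87 and 12.54 with IQ1, against 10.86, 7.58 and 11.83 in controls (difference 1.38), while the listed erythroid genes had a median of 0.06. No gene of these paragraphs passed after adjustment with 5 arrays.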
